A study of Zea mays with 157 samples.

Results

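golden2 and glk1 are the maize genes for a pair of transcription factors that act in chloroplast development. They were found as the identifiers Zm00001d039260 and Zm00001d044785 of the B73 genome, which the deposited gene list pairs with Zm00014a018086 and Zm00014a024878 of the Mo17 genome. They are 2 of 71129 gene identifiers in that list and 2 of 11637 genes paired between the genomes. The names come from the gene set and not from the files, which give identifiers alone. A gene that the RefSeq table of assembly NAM-5.0 lists under the synonym glk1 lies on the same chromosome as the circRNAs of Zm00001d044785, and no other check of the names was made.

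The GOLDEN2-LIKE (GLK) proteins belong to the GARP family of MYB-related factors. They switch on nuclear genes for chlorophyll synthesis and light-harvesting proteins, and plants that lack them have pale tissue with poorly built chloroplasts. Maize leaves carry out C4 photosynthesis, which divides carbon fixation between mesophyll and bundle sheath cells. golden2 is known for its role in the chloroplasts of bundle sheath cells, and glk1 transcripts are known mainly from mesophyll cells. A maize leaf blade matures from its base to its tip, and husk leaves around the ear have widely spaced veins and a less complete C4 anatomy.

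The study sampled 26 tissues from greenhouse plants of the inbred lines B73 and Mo17 and of their F1 hybrid, with no treatment. Each tissue of each line gave 1 mRNA library and 1 circRNA library, and each library mixed 3 separate extractions from several plants in equal amounts. A circRNA is an RNA closed into a ring by splicing back onto a site further upstream. The tissues comprised 11 leaf samples (husk leaf, ear leaf, the third leaf at stage V3, and the first and topmost leaf at V3 and the leaf tip and base at V5, each with a suffix L and a suffix N), 9 samples of shoot apical meristem (SAM), inflorescence, tassel and ear, and 6 samples of root, stem, internode, embryo and endosperm. The labels do not explain the suffixes L and N. Since 1 pooled library stands for each tissue, the spread between plants was not measured, and p-values rest on the spread between tissues, leaf positions or lines. These are bulk tissues, in which fewer cells of a type and less RNA per cell cannot be told apart.

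The mRNA values are read as TPM in Mo17, where each library sums to 1000010 to 1000070, and are in a unit that is not named in B73 and F1. Sequencing depth of the mRNA libraries is unknown. Levels below are scaled units, meaning the deposited value divided by the library's median ratio to all 78 libraries over 3695 genes. The 3 tables were normalized separately by the authors, so a level set across lines depends on that scaling. The limma fits below computed such factors anew over their own libraries, so the values they tested are not exactly these units.

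Both genes had their higher levels in leaves, and both were close to 0 in roots and embryos. golden2 ran in B73 from 17.04 to 79.7 scaled units over the 11 leaf libraries, with a median of 24.1, and from 4.01 to 16.4 over the 9 meristem and inflorescence libraries, with a median of 6.33. In Mo17 the leaf libraries ran from 11.9 to 38.99 with a median of 24.4, and the meristem and inflorescence libraries from 4.19 to 14.4 with a median of 6.40. In F1 they ran from 16.7 to 57.7 with a median of 22.8, and from 3.45 to 9.07 with a median of 6.53. In B73 and F1 no leaf library was as low as the highest meristem or inflorescence library, and in Mo17 the groups overlapped. Mean golden2 levels were 33.9 ± 21.5 in the leaves of B73 and 7.55 ± 3.82 in its meristem and inflorescence libraries (SD, n = 11 and 9), 22.9 ± 8.57 and 8.05 ± 3.64 in Mo17, and 27.99 ± 13.9 and 6.04 ± 2.13 in F1.

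glk1 spanned a far wider range than golden2 within the leaves themselves. Its B73 leaf libraries ran from 1.29 to 158.3 scaled units with a median of 22.9, while its B73 meristem and inflorescence libraries ran from 0.00727 to 1.29 with a median of 0.153. In Mo17 the leaf range was 0.738 to 86.4 with a median of 30.6, against 0.474 to 10.6 with a median of 1.67. In F1 the leaf range was 1.06 to 77.8 with a median of 23.3, against 0.233 to 3.51 with a median of 0.844. The groups overlapped in Mo17 and F1, because some leaf libraries held as little glk1 as a shoot meristem. Mean glk1 levels were 38.01 ± 46.1 in leaf and 0.428 ± 0.499 in meristem and inflorescence of B73, 31.9 ± 31.5 and 3.45 ± 3.60 in Mo17, and 35.3 ± 32.2 and 1.35 ± 1.298 in F1 (SD, n = 11 and 9).

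**Figure D1:**
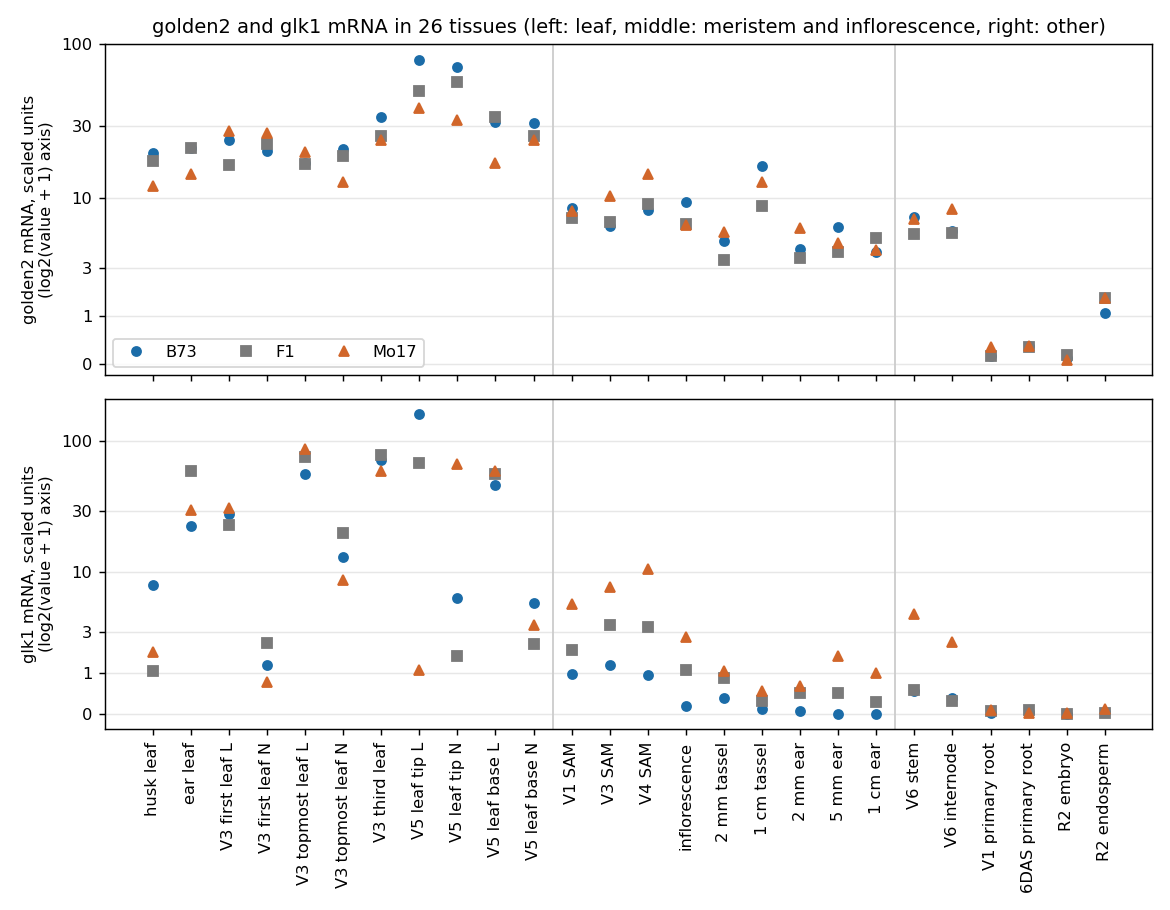
golden2 (top) and glk1 (bottom) mRNA in scaled units, on a log2(value + 1) axis, for the 26 tissues of B73 (circles), F1 (squares) and Mo17 (triangles), with 1 pooled library per point. Leaf tissues stand at the left, meristem and inflorescence in the middle and the other tissues at the right. golden2 in leaves lay between 11.9 and 79.7, while glk1 in leaves spread from 0.738 to 158.3.

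Leaf exceeded meristem and inflorescence for both genes in all 3 lines in limma on log2(scaled value + 1), with Benjamini-Hochberg adjustment over all genes. For golden2 the log2 difference was 1.86 in B73 (SE 0.28, adjusted p = 3.92e-06), 1.37 in Mo17 (SE 0.24, adjusted p = 3.26e-05) and 1.83 in F1 (SE 0.23, adjusted p = 5.1e-07). For glk1 it was 3.61 in B73 (SE 0.56, adjusted p = 7.72e-06), 2.15 in Mo17 (SE 0.77, adjusted p = 0.0166) and 2.93 in F1 (SE 0.70, adjusted p = 0.000864). With a pseudocount of 0.1 in place of 1 the glk1 difference in B73 was 5.56 (limma adjusted p = 6.06e-07), and most of its meristem and inflorescence values there lay below 1. Calls were common among all genes: 75.1% of those tested in B73, 73.7% in Mo17 and 74.7% in F1 were called in either direction. Those called higher in leaf were 8049 of 23646, 7840 of 24705 and 13228 of 40719. By absolute size, the glk1 difference was larger than that of 94.5% of genes in B73, 80.9% in Mo17 and 90.2% in F1, and the golden2 difference larger than that of 77.2%, 64.4% and 76.1%. On the deposited scale, where the median of all genes was -1.41 in Mo17 in place of -0.17, neither gene was called in that line, with log2 differences of -0.15 for golden2 and 0.85 for glk1. On the same scale golden2 moved to 0.94 in B73 (limma adjusted p = 0.00138) and 0.52 in F1 (limma adjusted p = 0.0338), where the medians of all genes were -0.90 and -1.22, and glk1 to 3.02 and 1.94. Without the leaf libraries of suffix L the Mo17 difference of glk1 was 1.78 (limma, adjusted p = 0.0543).

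Ordered by mean level over the 3 lines on the log2 scale, golden2 was highest in the V5 leaf tip, at 56.2 ± 21.1 scaled units in the L libraries and 54.1 ± 19.8 in the N libraries (SD over lines, n = 3 here and below). The third leaf at V3 followed at 28.2 ± 5.36, then the V5 leaf base at 27.1 ± 3.60 (N) and 27.7 ± 9.28 (L). The V3 first leaf held 23.5 ± 3.38 (N) and 22.9 ± 5.68 (L), the ear leaf 19.1 ± 3.96, the V3 topmost leaf 18.1 ± 1.91 (L) and 17.7 ± 4.33 (N), and the husk leaf 16.5 ± 4.16. The leaf samples thus took the first 11 places. The 1 cm tassel came next at 12.7 ± 3.83, followed by the V4 SAM at 10.53 ± 3.35, the V1 SAM at 7.86 ± 0.66 and the V3 SAM at 7.77 ± 2.15. Inflorescence, stem and internode lay between 6.56 and 7.40, and the 2 mm tassel and the 3 ear stages between 4.43 and 4.96. Each of these 22 tissues overlapped its neighbour in the order across lines. The first gap came at the R2 endosperm, at 1.41 ± 0.29, and below it lay the 6DAS primary root at 0.277 ± 0.0103, the V1 primary root at 0.167 ± 0.0876 and the R2 embryo at 0.0920 ± 0.0350.

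The order of glk1 interleaved leaves with meristems. By the mean of log2 values the V3 topmost leaf L came first at 72.7 ± 15.3 scaled units, with the third leaf at V3 at 69.7 ± 9.12 and the V5 leaf base L at 54.3 ± 6.50. The ear leaf followed at 37.6 ± 19.2, the V5 leaf tip L at 75.8 ± 78.9 and the V3 first leaf L at 27.7 ± 4.18. The leaf tip L thus had a higher mean in scaled units than the topmost leaf L, and its Mo17 library at 1.12 set it back on the log2 scale. The highest glk1 library was the V5 leaf tip L in B73 (158.3), the V3 topmost leaf L in Mo17 (86.4) and the third leaf at V3 in F1 (77.8). The N libraries came later, with the V3 topmost leaf at 14.04 ± 5.91, the V5 leaf tip at 25.0 ± 36.5, the V5 leaf base at 3.78 ± 1.67 and the V3 first leaf at 1.46 ± 0.81. Among these stood the V4 SAM at 4.97 ± 5.03, the V3 SAM at 4.10 ± 3.16, the husk leaf at 3.59 ± 3.73 and the V1 SAM at 2.77 ± 2.31. Neighbours in this order did not overlap between the third leaf and the leaf base L, between the first leaf L and the topmost leaf N, between the 1 cm tassel (0.270 ± 0.193) and the endosperm (0.0537 ± 0.0320), and, barely, between the 6DAS root (0.0488 ± 0.0282) and the embryo. glk1 was listed at 0 in the F1 embryo, at 0.0102 in the B73 embryo and at 0.0307 in the Mo17 embryo.

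Within the V5 leaf golden2 was higher in the tip than in the base, and the husk leaf, a separate kind of leaf, held less golden2 than either. In the B73 L libraries golden2 stood at 31.9 in the base and 79.7 in the tip, and in the N libraries at 31.2 and 71.7. In Mo17 it stood at 17.02 and 38.99 (L), and at 24.4 and 32.7 (N). In F1 it stood at 34.1 and 50.02 (L), and at 25.8 and 57.7 (N). The tip was higher in 6 of 6 pairs, by 1.34-fold to 2.50-fold, although the base and tip libraries overlapped when the lines were pooled. Husk leaf golden2 was 20.1 in B73, 12.0 in Mo17 and 17.6 in F1, below the tip and the base libraries of its own line in each case.

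In limma with line as a covariate and adjustment over 7512 genes, golden2 differed by 0.91 on the log2 scale between tip and base (SE 0.12, adjusted p = 0.000745), a comparison in which 9.23% of genes were called in either direction and 3.71% higher in the tip. Husk minus tip was -1.53 (SE 0.15, adjusted p = 5.44e-06), against 15.2% of genes called lower in husk. Husk minus base was -0.62 (SE 0.15, adjusted p = 0.00547), against 12.2% called lower. On the deposited scale tip minus base was 0.54 (adjusted p = 0.123), and with the L or the N libraries alone it kept its size, at 0.94 and 0.89, but missed the threshold with adjusted p = 0.0624 and 0.152. In these smaller fits 178 of 7291 and 1 of 7413 genes were called at all. On the deposited scale husk minus tip was -0.69 (adjusted p = 0.0352), where the median of all genes was 0.86. Husk minus base was lost on the deposited scale (-0.16), without F1 (-0.60) and without the L libraries (-0.63).

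glk1 gave no called difference among the same leaf samples. Its husk levels were 7.88 in B73, 1.84 in Mo17 and 1.06 in F1, which is lower than the ear leaf of the same line at 22.9, 30.6 and 59.4. The husk and ear leaf carry no suffix, and whether they match the L or the N libraries is not known. A difference between these leaves therefore cannot be told apart from one of the kind between L and N. In the base it stood at 47.1, 59.7 and 56.1 in the L libraries of B73, Mo17 and F1 and at 5.57, 3.51 and 2.27 in the N libraries. In the tip it stood at 158.3, 1.12 and 67.8 (L) and at 6.14, 67.1 and 1.70 (N). Base and tip each held libraries above 47 and libraries below 7, so their ranges overlapped. In limma the log2 difference of tip minus base was 0.16 (SE 1.15, adjusted p = 0.963), that of husk minus tip -2.08 (SE 1.41, adjusted p = 0.26) and that of husk minus base -1.91 (SE 1.41, adjusted p = 0.318). With the L libraries alone husk minus base was -3.68 (adjusted p = 0.044), where 11.5% of 7291 genes were called lower, while tip minus base turned to -0.89 and included the Mo17 tip described next. With the N libraries alone husk minus base was -0.21 (limma adjusted p = 0.897) and tip minus base 1.21 (limma adjusted p = 0.652). The size of husk minus base thus depended on the suffix of the base libraries.

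**Figure D2:**
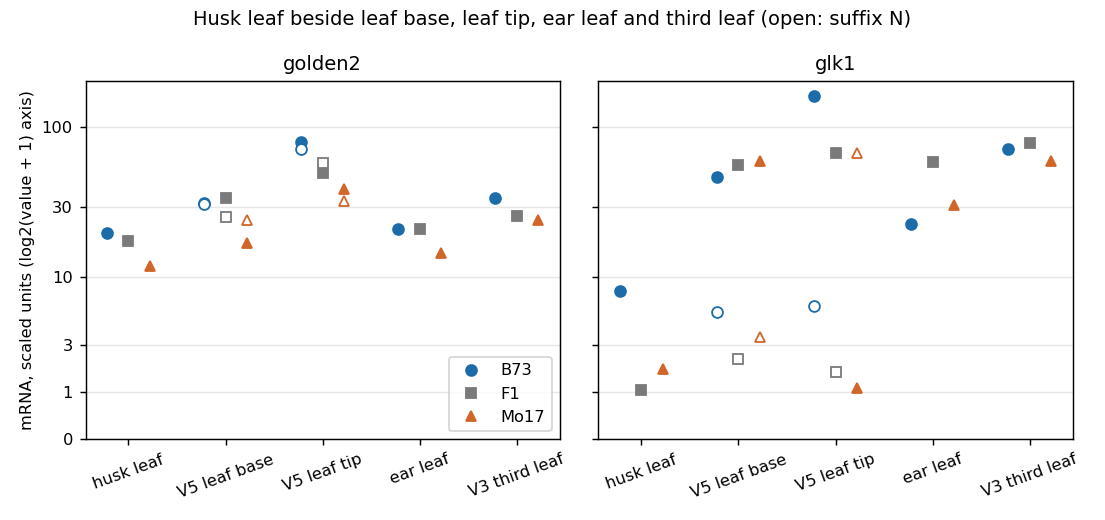
golden2 (left) and glk1 (right) mRNA in scaled units, on a log2(value + 1) axis, in husk leaf, V5 leaf base, V5 leaf tip, ear leaf and the third leaf at V3. Filled symbols are L libraries or libraries without a suffix, open symbols are N libraries, and colours and shapes mark the line. golden2 in the tip lay between 32.7 and 79.7 and in husk between 12.0 and 20.1, while glk1 in the tip split into libraries at 6.14 or less and at 67.1 or more.

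glk1 was higher in leaf libraries of suffix L than in those of suffix N, and golden2 was not called in this comparison. For the V3 first leaf, glk1 was 28.2 (L) and 1.29 (N) in B73, 31.7 and 0.738 in Mo17, and 23.3 and 2.34 in F1. For the V3 topmost leaf it was 56.1 and 13.1 in B73, 86.4 and 8.64 in Mo17, and 75.6 and 20.4 in F1. With the V5 base and tip values above, L was higher in 11 of 12 pairs, with a median ratio of 13.5. The exception was the Mo17 leaf tip, where the N library held 67.1 and the L library 1.12. Over the other 11 pairs the ratio ran from 3.71 to 42.9. For golden2 the ratio of L to N ran from 0.699 to 1.58 over the 12 pairs, and L was higher in 7.

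**Figure D3:**
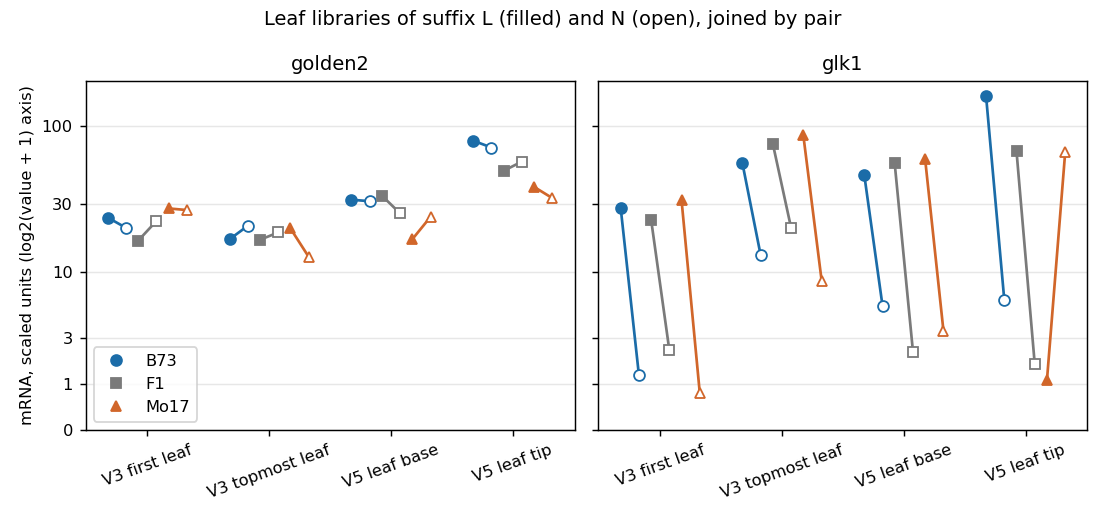
golden2 (left) and glk1 (right) mRNA in scaled units, on a log2(value + 1) axis, in 12 pairs of leaf libraries of suffix L (filled) and N (open), each pair joined by a line and coloured by maize line. The glk1 lines fall from L to N in 11 pairs and climb in the Mo17 leaf tip, while the golden2 lines stay between 12.8 and 79.7 with no common direction.

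In limma with the pair as a block, glk1 was higher in L by 2.58 on the log2 scale (SE 0.63, adjusted p = 0.0113), in a comparison where 30.7% of 7448 genes were called in either direction and 969 were called higher in L. The glk1 difference was larger in size than that of 99.6% of genes. Without the Mo17 tip pair it was 3.24 (SE 0.24, adjusted p = 2.23e-07), with 47.8% of genes called in either direction, 1468 of 7407 of them higher. That pair was the only one to go the other way for glk1, so the smaller p follows from leaving it out and adds no support. Across all genes the L and N libraries of the Mo17 tip deviated from their group means with a correlation of -0.03, against 0.46 to 0.87 in the other 11 pairs, so the libraries labelled as Mo17 tip L and N stood apart in more than glk1. Without B73 glk1 was at 2.34 (adjusted p = 0.187) and without F1 at 2.30 (adjusted p = 0.204), and in these fits of 8 pairs, the Mo17 tip among them, limma called 0 of 7289 and 0 of 7259 genes, with 1709 and 1584 at an unadjusted p under 0.05. With the 4 leaf positions as units, each averaged over lines, the difference was 2.58 (limma, adjusted p = 0.0389), where 21.8% of genes were called. For golden2 the limma difference was 0.01 (SE 0.09, adjusted p = 0.923), and its sign changed among the alternatives.

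The balance of the genes within a library was taken as log2(golden2 + 1) minus log2(glk1 + 1). A factor that scales the whole library cancels only where both genes lie well above the pseudocount of 1. Where glk1 lies far below 1, as in the B73 ears, the balance is close to log2(golden2 + 1) and moves with the scale. In the B73 5 mm ear it was 2.84, against 2.85 for golden2 alone. L minus N of this balance was -2.72 on average over the 12 pairs (SD 2.66, exact sign-flip permutation test, two-sided, p = 0.00879). Without the Mo17 tip pair it was -3.44 (p = 0.000977 by the same exact test, the smallest that 11 pairs can give). That pair was left out here after its values were seen and was the only one to go the other way. The smaller p thus follows from the choice of pairs and adds no support. With the 4 positions as units the exact p was 0.125, which is the smallest possible. Between tip and base the balance differed by 0.80 (SD 2.82, n = 6 pairs; exact sign-flip permutation test, p = 0.594). Between leaf and meristem it differed by -1.98 in B73 (exact permutation test, two-sided, p = 0.0193 adjusted over 3 lines), by -0.75 in Mo17 (adjusted exact p = 0.368) and by -1.09 in F1 (adjusted exact p = 0.277). With a pseudocount of 0.1 these differences were -3.70 in B73 (adjusted exact p = 0.0012) and -1.75 in F1 (adjusted exact p = 0.117). This balance in leaf had similar means in the 3 lines, at 0.57 ± 1.75 in B73, 0.56 ± 2.30 in Mo17 and 0.61 ± 2.30 in F1 (SD, n = 11). In meristem and inflorescence the means were 2.55 ± 0.69 in B73, 1.31 ± 0.93 in Mo17 and 1.70 ± 0.65 in F1 (SD, n = 9), and these differences between lines were not tested.

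Between the inbred lines, neither gene was called over all 26 tissues. In limma with tissue as a block, B73 minus Mo17 was 0.12 for golden2 (SE 0.10, adjusted p = 0.298) and -0.40 for glk1 (SE 0.32, adjusted p = 0.31), while 51.9% of 9211 genes were called in either direction. With a pseudocount of 0.1 the glk1 difference was -0.95 (adjusted p = 0.0626). Without the V5 leaf tip libraries, a subset taken after the values were seen, glk1 was called lower in B73 at -0.57 (SE 0.19, adjusted p = 0.0143), where 52.6% of genes were called. On the deposited scale both were called lower in B73, golden2 at -0.45 and glk1 at -0.87, but 7382 of 9341 genes were called there and the median of all genes was -0.53, so the sign for golden2 depends on the scaling between the tables. golden2 was higher in B73 in 8 of 11 leaf tissues, 4 of 9 meristem and inflorescence tissues and 3 of 6 others. Its leaf tip held 79.7 and 71.7 in B73 against 38.99 and 32.7 in Mo17, with F1 between them at 50.02 and 57.7.

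glk1 was higher in Mo17 than in B73 in each of the 9 meristem and inflorescence tissues. It was also higher in Mo17 in the V6 stem (4.44 against 0.478) and the V6 internode (2.36 against 0.307). B73 held more glk1 in 6 of 11 leaf tissues and in 1 of the 6 root, stem, internode and kernel tissues. In the V1, V3 and V4 SAM it stood at 0.975, 1.29 and 0.942 in B73, at 5.37, 7.52 and 10.6 in Mo17, and at 1.95, 3.51 and 3.35 in F1. In the inflorescence it stood at 0.153, 2.70 and 1.099 in the same order of lines. In the 2 mm and 1 cm tassel it stood at 0.326 and 0.0907 in B73, 1.06 and 0.474 in Mo17, and 0.844 and 0.246 in F1. In the 2 mm, 5 mm and 1 cm ear it stood at 0.0583, 0.00727 and 0.00920 in B73, 0.624, 1.67 and 1.01 in Mo17, and 0.432, 0.444 and 0.233 in F1. F1 lay between its parents in 9 of 9 of these tissues. The median ratio of B73 to Mo17 over these 9 tissues was 0.0934, and on the deposited scale it was 0.0588 with B73 again lower in 9 of 9. These ratios take no pseudocount and rest in part on B73 values near 0. In scaled units they ran from 0.00435 in the 5 mm ear to 0.308 in the 2 mm tassel.

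**Figure D4:**
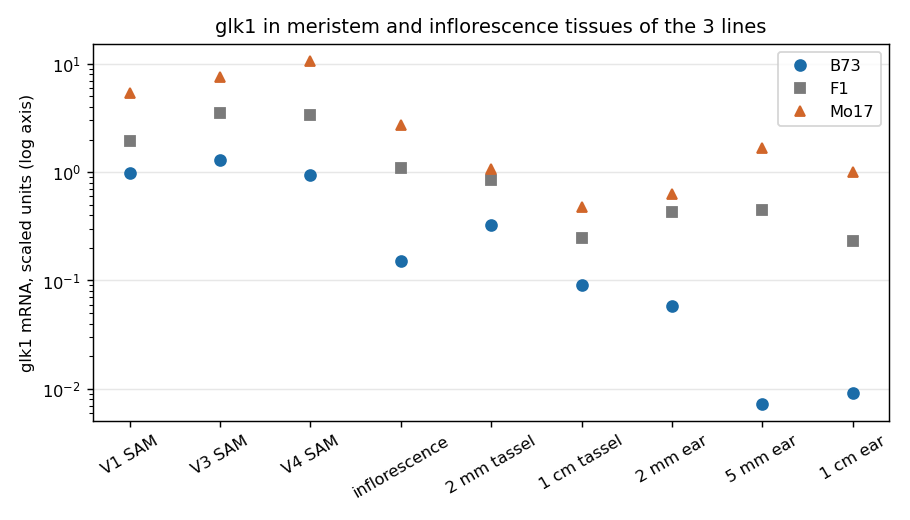
glk1 mRNA in scaled units, on a log axis, in the 9 meristem and inflorescence tissues of B73 (circles), F1 (squares) and Mo17 (triangles), with 1 pooled library per point. In each tissue Mo17 is highest, B73 lowest and F1 between them, and the V1 to V4 SAM hold more than the ear stages.

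With these 9 tissues alone, a subset taken after the values were seen, limma gave a glk1 difference of -1.58 for B73 minus Mo17 on the log2 scale (SE 0.21, adjusted p = 7.42e-05), where 25.4% of 8054 genes were called lower in B73 and 48.8% in either direction. In leaves alone the difference was 0.37 for glk1 (adjusted p = 0.639) and 0.42 for golden2 (adjusted p = 0.0306), where 21.4% of 7561 genes were called higher in B73. The glk1 ratio of B73 to Mo17 over the leaf tissues ran from 0.0916 to 141.4, and both ends were the V5 leaf tip. Whether the difference between leaf and meristem itself differed between the lines was tested as an interaction, in which 19.7% of 8738 genes were called. It was 0.53 for golden2 (SE 0.21, limma adjusted p = 0.0766) and 1.72 for glk1 (SE 0.72, limma adjusted p = 0.101). For glk1 it was called without the V5 leaf tip libraries, at 1.54 (adjusted p = 0.00109, with 21.4% of 8730 genes called), with a pseudocount of 0.1 and on the deposited scale. For golden2 it was called on the deposited scale alone, at 1.09, where 5628 of 8830 genes were called and the median of all genes was 0.60.

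Neither gene was called different between F1 and the mean of its parents over the 26 tissues. F1 minus mid-parent in limma was -0.11 for golden2 (SE 0.07, adjusted p = 0.581) and -0.09 for glk1 (SE 0.23, adjusted p = 0.941), while 6.71% of 9495 genes were called. golden2 in F1 lay between the parents in 12 tissues, above both in 4 and below both in 10. glk1 in F1 lay between the parents in 14 tissues, above both in 5 and below both in 7. The F1 values of both genes are on a finer grid than those of the parents. Multiplied by 3, all 26 B73 and all 26 Mo17 values of each gene came out whole to 6 decimals. So did 11 of 26 F1 values of golden2 and 14 of 26 of glk1. Multiplied by 6, all 26 F1 values did so, within 0.02 of the sixth decimal. The finer grid was not particular to these genes. Over the 11395 paired genes in F1, 52.5% of values came out whole when multiplied by 3 and 99.6% when multiplied by 6. Multiplied by 3, 98.7% did so for F1 genes of 1 genome, and 99.2% for paired genes in each parent. How the F1 values of paired genes were made, and whether that bears on the mid-parent comparison, was not tested.

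The levels of golden2 and glk1 followed each other over all tissues, with lower correlations within leaves and within meristem and inflorescence. Over the 26 tissues Spearman's rho was 0.88 in B73, 0.69 in Mo17 and 0.81 in F1. Over the 11 leaf tissues it was 0.32, 0.02 and 0.01, and over the 9 meristem and inflorescence tissues 0.40, 0.42 and 0.38. Tissues share a line, a table and their organ, so these values describe the levels and carry no p. golden2 ranked the tissues alike in the lines, with rho of 0.94 between B73 and Mo17, 0.97 between B73 and F1 and 0.94 between Mo17 and F1. For glk1 the same values were 0.75, 0.92 and 0.82.

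Among 8267 paired genes, the 5 with the highest mean rho to golden2 over the 26 tissues and 3 lines were Zm00001d033040, Zm00001d039415, Zm00001d031494, Zm00001d012287 and Zm00001d017179, at 0.906 to 0.90. For glk1 they were Zm00001d002384, Zm00001d018796, Zm00001d046363, Zm00001d018797 and Zm00001d021784, at 0.915 to 0.897. The files give these identifiers no name. A mean rho of 0.8 or more was reached by 276 genes with golden2 and by 113 with glk1, against medians over all genes of -0.09 and -0.09. With a mean rho of 0.793 to each other, glk1 took place 314 in the list of golden2, and golden2 took place 135 in the list of glk1.

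Both genes were catalogued as hosts of circRNAs. The catalogue gave golden2 3 circRNAs on the B73 genome (build B73 RefGen_v4) and 2 on the Mo17 genome, and glk1 3 and 1, against a median of 3 per host in both genomes. The tables are in RPM, back-splice reads scaled to the reads of each library, and the smallest value of a library, taken as 1 step, lay between 0.0363 and 0.10 RPM. On chromosome 3, Zmcirc007917 of golden2 spans 346 bp from 753582 to 753927 on the plus strand. Zmcirc011901 spans 1246 bp from 752682 and ends at the same 753927. Zmcirc070600 spans 731 bp and shares the start at 753582, ending at 754312. On chromosome 9, on the minus strand, Zmcirc014529 of glk1 spans 358 bp from 2408960 to 2409317, Zmcirc039802 spans 587 bp from the same start to 2409546, and Zmcirc059550 spans 292 bp from 2408532 to 2408823. In the Mo17 catalogue Zmcirc007917 spans 343 bp, Zmcirc011901 1247 bp and Zmcirc014529 358 bp. Exons at these positions were not analysed here.

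Zmcirc007917 carried nearly all of the signal. It was above 0 in 20 of 26 libraries in B73, 18 in Mo17 and 18 in F1, including all 11 leaf libraries of each line, and it was at 0 in the root, embryo, endosperm and 1 cm ear libraries of all 3 lines. In B73 its leaf libraries ran from 0.0766 to 1.07 RPM with a median of 0.538, and its meristem and inflorescence libraries from 0 to 0.572 with a median of 0.137. In Mo17 the ranges were 0.0929 to 0.623 with a median of 0.293, and 0 to 0.228 with a median of 0.063. In F1 they were 0.0850 to 0.482 with a median of 0.240, and 0 to 0.293 with a median of 0.0996. The groups overlapped in each line. In limma on log2(RPM + the smallest value above 0), leaf exceeded meristem and inflorescence by 1.58 in B73 (SE 0.46, adjusted p = 0.00529), 1.73 in Mo17 (SE 0.41, adjusted p = 0.000587) and 1.25 in F1 (SE 0.42, adjusted p = 0.0129). With a pseudocount 10 times larger the differences were 0.61, 0.51 and 0.33 (limma adjusted p = 0.00664, 0.00121 and 0.0227), so their size depends on the pseudocount. A higher level in leaf was called for 6.62% of 6061 circRNAs in B73, 5.54% of 5020 in Mo17 and 7.33% of 8760 in F1, and a lower level for 33.3%, 46.9% and 38.6%.

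The other 5 circRNAs were above 0 in at most 3 libraries of a line. Zmcirc011901 was found in the 2 mm ear (0.199 RPM) and inflorescence (0.0564) of B73, in the V3 topmost leaf L of Mo17 (0.0635), and in the V1 SAM (0.0498), V5 leaf tip N (0.080) and V5 leaf base L (0.0784) of F1. Zmcirc070600 was found in the F1 stem alone, at 0.0708. The glk1 circRNAs were found in leaf libraries: Zmcirc014529 in the B73 husk leaf (0.102) and F1 ear leaf (0.085), Zmcirc039802 in both V3 first leaf libraries of B73 (0.0788 and 0.0952), and Zmcirc059550 in the B73 V5 leaf tip L (0.0906) and the F1 V3 first leaf N (0.0838). Except for the 2 mm ear value at 2.50 steps and the husk value at 1.33, these lay at about 1 step. Summed per host, golden2 circRNAs reached 0.533 ± 0.307 RPM in leaf and 0.214 ± 0.189 in meristem and inflorescence of B73, 0.303 ± 0.173 and 0.0704 ± 0.0809 in Mo17, and 0.266 ± 0.160 and 0.102 ± 0.108 in F1 (SD, n = 11 and 9). The two-sided exact permutation test, adjusted over 5 tests, gave p = 0.0324, 0.0045 and 0.0324. With a cutoff of 0.2 RPM the F1 difference was 0.147 RPM (adjusted exact p = 0.0696) in place of 0.164 and was no longer called. For glk1 the sums were 0.0333 ± 0.0465 in B73 leaf and 0.0153 ± 0.0341 in F1 leaf, against 0 in all 9 meristem and inflorescence libraries (adjusted exact p = 0.118 and 0.479), and no circRNA of glk1 is in the level table of Mo17.

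**Figure D5:**
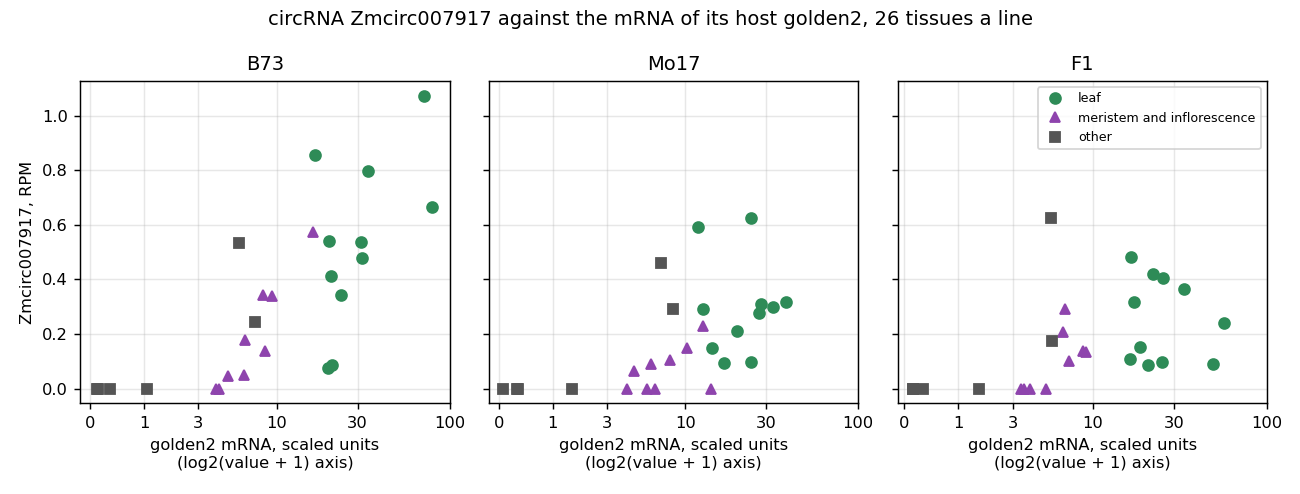
Level of the circRNA Zmcirc007917 in RPM against the mRNA of its host golden2 in scaled units, on a log2(value + 1) axis, for the 26 tissues of B73, Mo17 and F1 (left to right), coloured by organ. The circRNA is at 0 where golden2 mRNA is below 3, and also in some libraries above that level, such as the Mo17 V4 SAM at 14.4. It reaches 1.07 RPM in B73 and varies among leaf libraries of similar mRNA level.

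Over the 26 tissues the level of Zmcirc007917 followed golden2 mRNA with a Spearman's rho of 0.81 in B73, 0.71 in Mo17 and 0.61 in F1, over the 11 leaf tissues with 0.38, 0.26 and -0.12, and over the 9 meristem and inflorescence tissues with 0.91, 0.42 and 0.68. The mRNA and circRNA libraries of a tissue were separate libraries, and the circRNA values above 0 lay between 1 and 14.7 steps, which limits the precision of these descriptions. In the V5 leaf tip, where golden2 mRNA was highest, the circRNA stood at 0.664 and 1.07 RPM in B73 (L and N), 0.319 and 0.298 in Mo17, and 0.0904 and 0.240 in F1. In the husk leaf, where golden2 mRNA was lowest among leaves by its mean over lines, it stood at 0.0766, 0.593 and 0.316 RPM in B73, Mo17 and F1.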

How the data were processed

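mRNA and circRNA were measured in 26 tissues of 3 lines, with 1 library of each kind per tissue and line. The mRNA values of Mo17, as deposited, sum to 1000010 to 1000070 per library and were read as TPM. For B73 and F1 neither label nor header names the unit, and the deposited values were treated as a score, a normalized level of unknown kind. The circRNA columns were deposited as RPM by the authors. The inverse of a library's smallest value above 0 ran from 9998390 to 27527200, which would be its reads only if that value were 1 read. Other values were not whole multiples of it, such as 1.33 steps for Zmcirc014529 in the B73 husk leaf. The circRNA depth is therefore not known from it. Per the submitters' processing notes, HISAT, StringTie, TopHat and SAMtools and the build B73 RefGen_v4 were used; the Mo17 build and the circRNA settings are not given in the sources used here. Per the file headers, circRNA positions came from circexplorer2. The column headed V3 leaf was taken as the third leaf, since every other V3 leaf has a column of its own. A pair of per-sample count columns (2 columns) matched no single sample and was not used.

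mRNA values were divided by median-ratio factors within each fit, and log2(value + 1) was tested with limma 3.58.1 (trend) in R 4.3.3 keeping a gene with 3 or more libraries at 1 or above, with Benjamini-Hochberg adjustment at 0.05 over all features tested. Differences on this scale understate the change of low genes. A circRNA was tested when 5 or more libraries listed it above 0. Single ratios and sums used permutation tests in Python 3.11.15. The scripts were tested on simulated data. Members, gene lists and tests were chosen with earlier results of these data known. Tissues pair the lines by label, and the deviations of the same tissue from its line's mean correlated at 0.682 or more. Leaf pairs of suffix L and N share a line and a position by label. The 5 genes most alike to each member by mean Spearman's rho were named. A list of chlorophyll and light-harvesting genes could not be drawn up, because no identifier was paired with a name, and sequences of the members were not used here. Alternatives were other pseudocounts, filters, scalings, blocks and subsets of libraries; the subsets by suffix, by organ and without the V5 tip, the 4 positions as units and the balance between L and N were added after seeing the data.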

Additional observations from a re-analysis of the deposited data

Results flagged for a closer look

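In B73, golden2 in the 1 cm tassel (16.4 scaled units) stood far above the other 8 meristem and inflorescence libraries, which ran from 4.01 to 9.25. The same tissue held 12.8 in Mo17 and 8.77 in F1. Zmcirc007917 in the F1 stem at V6, at 0.624 RPM, stood far above the other 5 root, stem and kernel libraries of F1, of which the internode held 0.176 and the rest 0. Chance flags about 1 in 20 groups, and 18 groups were examined. The glk1 difference of L minus N in the Mo17 V5 leaf tip was -5.0 on the log2 scale, while the other 11 pairs were all positive. That difference was not tested.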

How the results depend on the processing

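Over 34 results and 202 alternatives, 167 kept direction and side of the threshold, 13 reversed (1 of them lost and 1 gained a call), and 12 lost and 10 gained a call with the same sign; for the rest the cause was not tested unless the alternative itself removes libraries. On the deposited scale, golden2 leaf minus meristem in Mo17 was -0.15 and glk1 0.85, golden2 tip minus base 0.54 and husk minus base -0.16, glk1 tip minus base -0.15, B73 minus Mo17 -0.45 for golden2 and -0.87 for glk1, golden2 L minus N -0.15, and the interaction 1.09 for golden2 and 2.17 for glk1. With a pseudocount of 0.1 the glk1 interaction was 3.24, and the balance of golden2 to glk1 differed between B73 and Mo17 by 1.05 (permutation p = 0.0202) in place of 0.53 (p = 0.111). Quantile normalization gave golden2 L minus N -0.0332. Leaving out each line in turn gave 0.78 to 0.98 for golden2 tip minus base, -0.20 to 0.43 for glk1 tip minus base, -1.61 to -1.44 and -2.24 to -1.88 for husk minus tip of golden2 and glk1, -0.66 to -0.60 and -2.44 to -1.64 for husk minus base, -0.0308 to 0.0717 and 2.30 to 3.12 for L minus N, and 0.58 to 1.04 for the balance of tip to base. Without the Mo17 tip pair golden2 L minus N was -0.00806, and -0.00909 with 4 positions as units; the balance between L and N with 4 positions as units was -2.72 (exact p = 0.125). Without the L leaf libraries glk1 leaf minus meristem in Mo17 was 1.78, golden2 tip minus base 0.89 and husk minus base -0.63. In the same fits glk1 tip minus base was 1.21 and glk1 husk minus base -0.21, neither of them called. Without the N leaf libraries golden2 tip minus base was 0.94, glk1 tip minus base -0.89 and glk1 husk minus base -3.68. B73 minus Mo17 was 0.42 (golden2) and 0.37 (glk1) in leaves, -0.0795 and -1.58 in meristem and inflorescence, and -0.16 for golden2 in the other tissues, where glk1 passed no filter. Without the V5 tips it was -0.57 for glk1 (called), and the glk1 interaction 1.54. The golden2 circRNA sum in F1 at a cutoff of 0.2 RPM differed by 0.147 (exact p = 0.0696). The replicate block by line and suffix left golden2 tip minus base at 0.91 (limma adjusted p = 0.00983) and glk1 at 0.17, and removing the block by tissue or pair changed no call. The mRNA depth is unknown, and the circRNA values above 0 of Zmcirc007917 lie between 1 and 14.7 steps, which limits their precision.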

Other observations

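Relative to golden2 mRNA of the same tissue, the circRNA Zmcirc007917 had its highest value of each line in a stem or internode library. In F1 the V6 stem held 0.114 RPM per scaled unit of golden2 mRNA, above each of the 11 leaf libraries, which ran from 0.00181 to 0.0285 with a median of 0.00809. In Mo17 the V6 stem held 0.0651, against 0.00397 to 0.0497 in leaf with a median of 0.0103. In B73 the V6 internode held 0.0928, against 0.00381 to 0.0502 in leaf with a median of 0.015. These 3 were each from 1 library and were chosen after their values were seen, and no test was made. The other stem and internode libraries lay within or just above the leaf range of their line, at 0.0337 in the B73 stem, 0.035 in the Mo17 internode and 0.0314 in the F1 internode. The V5 leaf tip libraries held medians of 0.0116 in B73, 0.00864 in Mo17 and 0.00298 in F1.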
